A study of Mus musculus with 4 samples.

Results

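The respiratory chain is built from 2 genomes, and this account follows its genes through 2 single-cell expression libraries from mouse peritoneal immune cells. Members were taken by symbol, as structural subunits of complexes I to V, the succinate dehydrogenase genes and cytochrome c. Complex I assembly factors were left out. The rule gave 100 of the 32285 genes in the files. Of these, 13 lie on the mitochondrial genome, namely 7 subunits of complex I, 1 of complex III, 3 of complex IV and 2 of complex V. The other 87 are nuclear genes, with 39 assigned to complex I, 4 to complex II, 8 to complex III, 18 to complex IV, 17 to complex V and 1 to cytochrome c. Assignment followed the symbol, so Ndufa4, now regarded as a subunit of complex IV, is counted with complex I.

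Complexes I, III and IV pump protons across the inner mitochondrial membrane while electrons pass from NADH to oxygen. Complex II feeds electrons from succinate, cytochrome c carries them between complexes III and IV, and complex V, the ATP synthase, uses the proton gradient to make ATP. Complex II and cytochrome c are encoded in the nucleus alone, whereas complexes I, III, IV and V need products of both genomes. The mitochondrial genes are transcribed as long polycistronic RNAs that are cut into mature messages inside the organelle.

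The cells were CD45+ cells sorted from peritoneal lavage of wild-type (WT) and knockout (KO) mice. Both groups received a high-fat diet for 3 months, beginning at 4 weeks of age, so the WT animals were on that diet too. Each genotype had 1 expression library and 1 B-cell receptor library, and the labels do not state how many mice went into either. With 1 library per genotype no test between genotypes was possible. All intervals below are 95% intervals for counting error only, do not include the spread between mice, and take UMIs (unique molecular identifiers, counted molecules) as independent.

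The WT library held 10087 barcodes and 81817635 UMIs, and the KO library 22516 barcodes and 103953298 UMIs. The median depth was 6362 UMIs per barcode in WT and 3298 in KO. The doublet step removed 7.87% of scored barcodes in WT and 17.2% in KO. The libraries shared 293 barcode sequences. Joint clustering gave 8 classes named from marker genes. They are B-1-like (4250 WT and 7402 KO barcodes), B-2-like (2036 and 5381), T-like (1618 and 2811), NK-like (339 and 597), conventional dendritic-like (164 and 376), small peritoneal macrophage- or monocyte-like (89 and 302), large peritoneal macrophage-like (35 and 135) and dividing-like (34 and 101), and are written below without the suffix. Summed T-cell markers stood at 4270 CPM (the usual depth-scaled count, taken over all UMIs that a class had in a library) in WT and 4522 in KO T cells, against 16.3 and 18.2 in B-1 cells. Markers of B cells differed between the libraries outside the B classes. Their 6-gene sum was 54.5 CPM in WT and 403 in KO NK cells and 166 against 372 in T cells, with none of the 6 at 0. Leaving out T and NK barcodes with 3 or more UMIs of 5 B-cell genes left the sums below almost where they were, as given beside them.

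Sequence shows how tightly the mitochondrial genes of ATP synthase are packed. The genes mt-Atp8 and mt-Atp6 share 43 bases on one transcript. In GENCODE vM21 (GRCm38), mt-Atp8 spans chrM:7766-7969 and mt-Atp6 chrM:7927-8607, both on the plus strand. The lines give the last 73 bases of the first and the first 73 of the second, 5′ to 3′, with the shared bases in capitals.
mt-Atp8, end: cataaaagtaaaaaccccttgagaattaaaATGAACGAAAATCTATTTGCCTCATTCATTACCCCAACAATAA
mt-Atp6, start: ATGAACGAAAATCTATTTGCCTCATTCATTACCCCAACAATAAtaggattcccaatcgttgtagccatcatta
The pair mt-Nd4l (chrM:9877-10173) and mt-Nd4 (chrM:10167-11544), both complex I, overlaps by 7 bases.
mt-Nd4l, end: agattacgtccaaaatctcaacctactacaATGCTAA
mt-Nd4, start: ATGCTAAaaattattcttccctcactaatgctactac

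The 2 genomes contributed in different proportion from one cell class to another. Mitochondrially encoded members made up 1.78% of UMIs in WT and 2.06% in KO B-1 cells, the highest shares of any class. B-2 cells followed with 1.58% and 1.85%, and T cells with 1.42% and 1.60%. In NK cells the share was 1.08% in WT and 1.30% in KO. The lowest shares were in small peritoneal macrophages or monocytes, at 0.983% and 0.998%, next to 1.03% and 1.12% in conventional dendritic cells and 1.15% and 1.17% in large peritoneal macrophages. Dividing cells stood at 1.39% and 1.76%.

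Nuclear-encoded members ran in another order. Their share was highest in dividing cells (2.15% in WT and 1.94% in KO) and NK cells (2.05% and 1.88%). T cells had 1.80% and 1.83%, and small peritoneal macrophages or monocytes 1.74% and 1.75%. Conventional dendritic cells had 1.67% and 1.62%, B-1 cells 1.62% and 1.56%, B-2 cells 1.56% and 1.54%, and large peritoneal macrophages 1.47% and 1.47%. The lymphoid classes therefore did not share one level. B-1 cells carried 1.1 mitochondrially encoded UMIs per nuclear-encoded one in WT (interval 1.096 to 1.103), whereas WT NK cells carried 0.525 (0.514 to 0.536). In KO these ratios were 1.32 (1.32 to 1.33) and 0.692 (0.678 to 0.706). B-2 cells lay at 1.02 and 1.2, T cells at 0.788 and 0.874, conventional dendritic cells at 0.616 and 0.691, and small peritoneal macrophages or monocytes at 0.564 and 0.569.

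**Figure D1:**
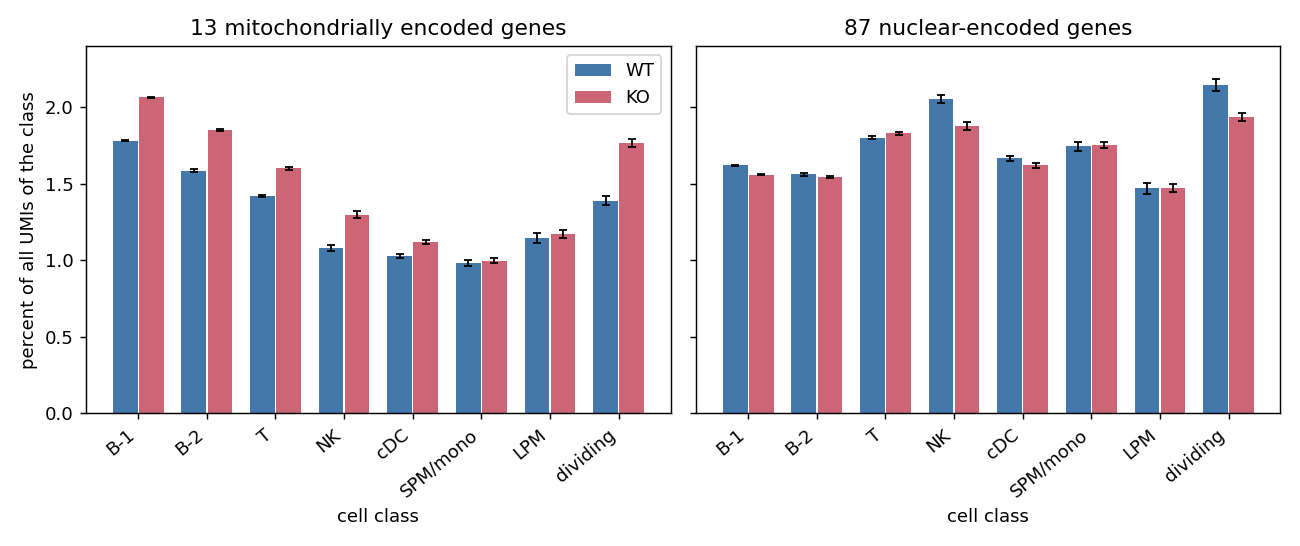
Percent of all UMIs of a cell class (y axis, from 0) that came from the 13 mitochondrially encoded (left) and 87 nuclear-encoded (right) members, by class (x axis) in WT (blue) and KO (red). Bars are sums over barcodes of 1 library and error bars are exact 95% binomial intervals for counting error; cDC are conventional dendritic, SPM/mono small peritoneal macrophages or monocytes and LPM large peritoneal macrophages. The mitochondrial bars are tallest in B-1 cells (1.78% and 2.06%), and the nuclear bars in dividing (2.15% and 1.94%) and NK cells (2.05% and 1.88%).

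The difference between B-1 and NK cells was also present barcode by barcode. The median B-1 barcode gave 1.78% of its UMIs to mitochondrially encoded members in WT (quartiles 1.35% and 2.22%) and 2.15% in KO (1.55% and 2.68%), so the quartile ranges overlapped. The median NK barcode gave 1.01% (0.759% to 1.32%) and 1.27% (0.888% to 1.67%). After thinning every barcode to 1000 UMIs, which left out 33 WT and 65 KO B-1 barcodes and 15 and 75 NK barcodes as too shallow, the B-1 medians were 1.80% and 2.10% and the NK medians 1.0% and 1.3%.

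Individual members followed these orders to different degrees. Among 11 mitochondrially encoded members at a mean of 50 CPM or more over the 7 classes other than dividing cells, 10 were highest in B-1 cells in both libraries. The complex III subunit mt-Cytb had 2680 CPM in WT and 3060 in KO B-1 cells, and 1274 and 1303 in small peritoneal macrophages or monocytes. These classes were the highest and lowest for the gene, 2.10-fold apart in WT and 2.35-fold in KO. Of the 77 nuclear-encoded members at that level, 43 were highest in NK cells in WT and 24 in KO, and the next most frequent classes were small peritoneal macrophages or monocytes in WT (12) and T cells in KO (22). The highest class was the same in both libraries for 39 of the 77. The largest spread that held in both libraries among nuclear members was that of Atp5md, a small subunit of ATP synthase. It ranged from 262 CPM in NK cells to 116 in large peritoneal macrophages in WT, and from 204 to 76.6 in KO.

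Between genotypes, the sums for the 2 genomes differed in opposite directions in B-1 and NK cells, and also in conventional dendritic and dividing cells, given below. In B-1 cells the 13 mitochondrially encoded genes summed to 17820 CPM in WT and 20632 in KO, a KO to WT ratio of 1.16 (1.15 to 1.16). The 87 nuclear-encoded genes summed to 16201 and 15582 CPM, a ratio of 0.962 (0.959 to 0.965). In NK cells the mitochondrial sum was 10792 and 12989 CPM (ratio 1.204, 1.18 to 1.23) and the nuclear sum 20548 and 18769 CPM (0.913, 0.897 to 0.930). Without the NK barcodes that carried B-cell UMIs these ratios were 1.21 and 0.916.

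In B-2 cells the mitochondrial sum was again higher in KO, with a ratio of 1.17 (1.16 to 1.18), whereas the nuclear sum had a ratio of 0.989 (0.982 to 0.996). That side of 1 was not stable, since scaling to the median ratio of all genes gave 1.01. T cells had 1.13 (1.12 to 1.14) for the mitochondrial sum, 1.12 without the barcodes with B-cell UMIs, and 1.02 (1.01 to 1.02) for the nuclear sum, which became 0.996 when scaled to the median of all genes.

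In the myeloid classes the mitochondrial ratio depended on the doublet step. The mitochondrial ratio was 1.09 (1.07 to 1.11) in conventional dendritic cells, 1.02 (0.990 to 1.04) in small peritoneal macrophages or monocytes and 1.02 (0.990 to 1.06) in large peritoneal macrophages. Both macrophage intervals included 1, and so did those of their nuclear sums, 1.01 (0.987 to 1.03) and 1.003 (0.974 to 1.03). The nuclear sum of conventional dendritic cells was lower in KO, with a ratio of 0.973 (0.959 to 0.986) that stayed below 1 under all 8 alternatives. With no doublets removed, the mitochondrial ratio was 1.22 in conventional dendritic cells, 1.21 in small peritoneal macrophages or monocytes and 1.14 in large peritoneal macrophages, against 1.15 in B-1 cells. Dividing cells had the widest separation, 1.27 (1.23 to 1.30) for the mitochondrial and 0.902 (0.881 to 0.923) for the nuclear sum, from 34 WT barcodes. This class held both B- and T-cell markers, with 4487 CPM for Cd79a, Cd79b and Ms4a1 and 430.5 CPM for the Cd3 genes. Immunoglobulin made up 1.91% of its UMIs in WT and 2.84% in KO. The part of its cell mix in the ratios was not tested.

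The higher mitochondrial sum in KO was not a matter of 1 cluster. Of 14 clusters with at least 50 barcodes in both libraries, 13 had a mitochondrial ratio with an interval wholly above 1, and the 14 ratios ran from 1.02 to 1.26. The nuclear ratio had an interval wholly below 1 in 9 and wholly above 1 in 1, with a range of 0.913 to 1.03. In the 4 B-1 clusters the mitochondrial ratios were 1.13, 1.21, 1.21 and 1.22, and the nuclear ratios 0.968, 0.948, 0.967 and 0.970. Depth per barcode, the share removed as doublets and genotype moved together in these libraries and cannot be told apart. Thinned to 1000 UMIs, the B-1 ratios were 1.19 for the mitochondrial and 0.953 for the nuclear sum.

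In B-1 and T cells the mitochondrially encoded sums of complexes IV and V had higher ratios than that of complex I. In B-1 cells the ratio was 1.105 (1.098 to 1.112) for complex I, 1.14 (1.13 to 1.15) for complex III, 1.17 (1.17 to 1.18) for complex IV and 1.21 (1.203 to 1.23) for complex V. The T-cell ratios stood in the same order, at 1.06, 1.11, 1.15 and 1.18. Among the nuclear sums of B-1 cells, complex V was lowest (5737 CPM in WT and 5425 in KO, ratio 0.946, 0.940 to 0.951). Complexes I, III and IV had ratios of 0.975, 0.966 and 0.965. In B-1 cells the sums of the 2 genomes therefore differed most within complex V. There, mitochondrially encoded UMIs per nuclear-encoded UMI went from 0.347 in WT to 0.445 in KO. In NK cells the KO value was 1.37 times that of WT for complex IV and 1.36 times for complex V. The 2 mitochondrial genes of complex V went opposite ways in B-1 cells, mt-Atp6 with a ratio of 1.31 and mt-Atp8 with 0.851.

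Complex II, which has no mitochondrially encoded subunit, stood apart from the other nuclear sums in B-1 cells. Its sum was 346 CPM in WT and 358 in KO B-1 cells, a ratio of 1.04 (1.01 to 1.06). Sdha, the flavoprotein that oxidises succinate, had 98.2 and 103 CPM (1.05, 1.01 to 1.09), and Sdhb, the iron-sulfur subunit, 128 and 134 CPM (1.05, 1.01 to 1.09). The membrane anchors Sdhc (43.7 and 43.6 CPM) and Sdhd (75.8 and 77.2 CPM) had intervals that included 1. In B-2, T and NK cells the complex II ratio was 1.04, 1.05 and 1.04, each with an interval that included 1.

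Cytochrome c went the other way. Cycs had 166 CPM in WT and 149 in KO B-1 cells (0.898, 0.868 to 0.929) and 188 and 170 CPM in T cells (0.903, 0.836 to 0.975). The largest difference was in NK cells, with 353 CPM in WT and 237 in KO (0.671, 0.577 to 0.780). Dividing cells had 301 and 210 CPM (0.695, 0.561 to 0.862). In large peritoneal macrophages the values were 112 and 140 CPM with an interval of 0.900 to 1.76.

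**Figure D2:**
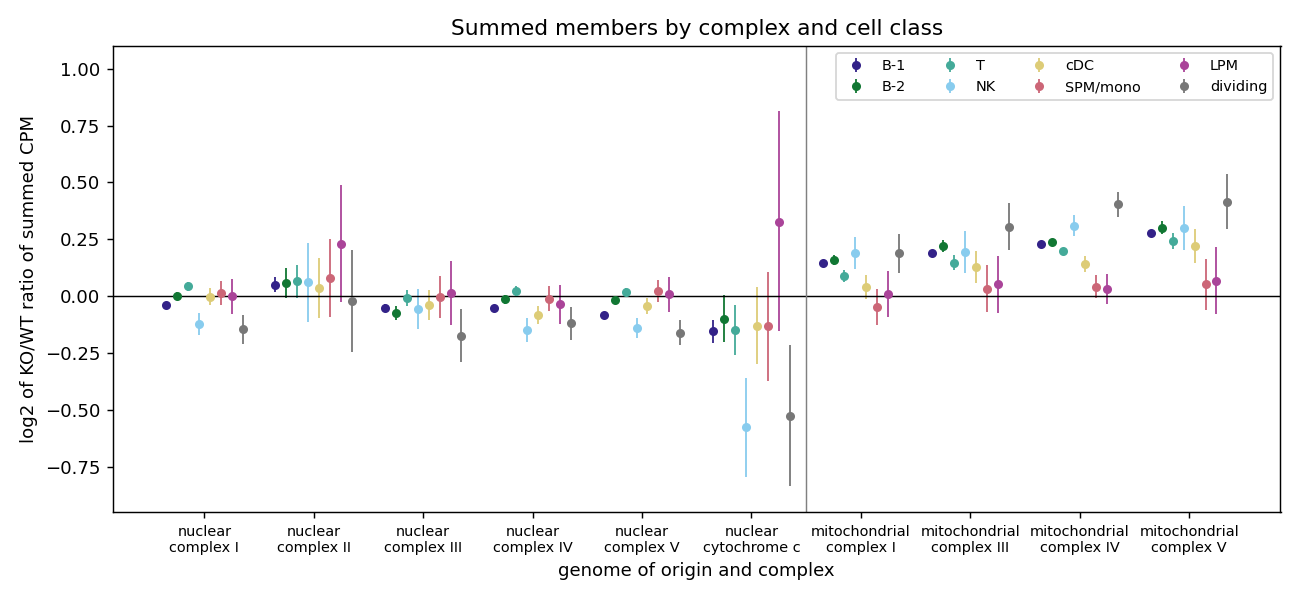
Log2 of the KO to WT ratio of summed CPM (y axis) for the nuclear-encoded (left of the line) and mitochondrially encoded (right) members of each complex (x axis), coloured by cell class. Points are ratios of class sums and bars exact 95% intervals for counting error. Mitochondrially encoded sums of the 4 lymphoid classes lie above 0 for every complex, and cytochrome c in NK cells (a ratio of 0.671) is the lowest of the nuclear points.

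Gene by gene, a member was called when its whole interval lay above 1.2-fold or below the inverse, among genes at a mean of at least 10 CPM. In B-1 cells 3 of 79 nuclear-encoded members at that level were called lower in KO, against 1.83% of all 7164 genes tested, and none was called higher (2.93% of all genes were). Of the 13 mitochondrially encoded members, 2 were called higher and none lower. In B-2 cells 1 of 79 nuclear members was called lower (1.39% of all genes) and 1 mitochondrial member higher (0.838%). In T cells no nuclear member was called lower (1.25%) and 1 mitochondrial member higher (2.51%). In NK cells 3 of 79 were called lower (0.898%) and 2 mitochondrial members higher (1.45%). In dividing cells Atp5e and Uqcr11 were called lower (2.14%) and mt-Co1, mt-Co3, mt-Nd5 and mt-Atp6 higher (2.29%), and in large peritoneal macrophages Ndufa1 and mt-Atp8 lower (2.15%). No member was called in small peritoneal macrophages or monocytes, where 2.66% of all genes were called lower and 1.49% higher. The members' shares lay near the background for the nuclear genes of B-1 and B-2 cells, and single genes rarely differed by much.

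Small shifts were more common than calls. In B-1 cells 42 of 79 nuclear members had an interval wholly below 1, against 17.2% of all genes, and 14 wholly above 1, against 28.4%. Their median log2 ratio was -0.06, beside 0.03 for all genes tested. In B-2 cells 20 lay wholly below (15.2% of all genes) and 14 above (8.43%), and in T cells 12 (9.61%) and 15 (15.8%). In NK cells 19 lay below (5.41%) and 2 above (5.51%). An interval clears 1 at a smaller shift when a gene has more UMIs. The genes behind these percentages were not matched to the members for level, so an excess over them is not by itself a larger shift. Across these 4 classes 27 nuclear members had a ratio below 1 in every class and 13 above 1 in every class, against 12.7% and 15.1% of the 6319 genes tested in all 4. The classes come from the same 2 libraries and are not replicates.

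The remaining 8 nuclear members did not reach 10 CPM in the B-1, B-2, T or NK class. They are tissue-restricted forms. Ndufa4l2, Cox4i2, Cox7b2, Cox8b and Cox8c had 0 UMIs in both libraries. Cox7a1, the heart and muscle form, had 38 and 31 UMIs among kept barcodes, and Cox6b2, the testis form, 177 and 215. Of these Cox6b2 UMIs 89 and 108 lay in conventional dendritic cells, where the gene had 37.8 CPM in WT and 41.5 in KO with an interval that included 1. The general forms were abundant, with 793 CPM for Cox4i1 in WT and 848 in KO over all kept barcodes, 684 and 640 for Cox8a, and 278 and 271 for Cox6a1.

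The lowest nuclear members in B-1 cells were Atp5md and Atp5e of complex V and Ndufa1 of complex I. Atp5md had 139 CPM in WT and 106 in KO (0.766, 0.736 to 0.796), and its interval lay below 1 in all 8 classes. In B-2 cells it had 147 and 107 CPM (0.728, 0.674 to 0.787). Atp5e, the epsilon subunit of the central stalk, had 643 and 517 CPM in B-1 cells (0.804, 0.790 to 0.818) and also lay below 1 in all 8 classes. Atp5j2, a membrane subunit, was lowest in NK cells (380 and 269 CPM, 0.707, 0.613 to 0.815). At the other end, Atp5f1, of the peripheral stalk, had 238 and 265 CPM in B-1 cells (1.11, 1.08 to 1.14), and Atp5h, of the same stalk, 391 and 407 (1.04, 1.02 to 1.06).

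The ring of ATP synthase is made from 1 protein encoded by 3 genes, and their use differed by class. Atp5g2 supplied 56.0% of the UMIs of the 3 genes in WT B-1 cells (55.6% to 56.4%) and 55.4% in KO. Its share was 51.9% and 52.4% in B-2 cells and 45.2% and 44.4% in T cells. In NK cells it was 40.1% and 41.8%, and Atp5g3 supplied 42.0% and 42.7%. The differences between lymphoid classes exceeded those between the genotypes within a class. Atp5g1 stayed between 13.5% and 21.2% in every class and library.

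Complex I had 1 nuclear member called lower in B-1 cells. Ndufa1, a small membrane-arm subunit, had 103 CPM in WT and 80.1 in KO (0.776, 0.742 to 0.812). Its ratio was below 1 in all 8 classes. Ndufb2 followed with 73.4 and 60.8 CPM (0.828, 0.786 to 0.873). The highest were Ndufa8 (95.9 and 104 CPM, 1.09, 1.04 to 1.13) and Ndufb5 (167 and 179 CPM, 1.07, 1.04 to 1.11). In T cells Ndufb8 had 135 and 170 CPM (1.26, 1.16 to 1.37), and Ndufv2, of the NADH-oxidising module, 121 and 140 (1.16, 1.06 to 1.27). Ndufc1 was among the lowest there (69.1 and 58.1 CPM, 0.840, 0.737 to 0.957). In B-2 cells Ndufc2 was highest (90.7 and 110 CPM, 1.21, 1.11 to 1.32), followed by Ndufs8 (1.12, 1.04 to 1.21) and Ndufab1 (1.12, 1.03 to 1.21), and Ndufa2 was among the lowest (176 and 145 CPM, 0.823, 0.769 to 0.881).

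Complexes III and IV repeated that spread. Uqcr11, the smallest subunit of complex III, had 113 and 92.5 CPM in B-1 cells (0.817, 0.783 to 0.853) and 92.6 and 74.9 in B-2 cells (0.809, 0.736 to 0.890). In dividing cells it was called lower, with 208 and 88.6 CPM (0.425, 0.316 to 0.570). Uqcrq had 147 and 130 CPM in B-1 cells (0.886, 0.854 to 0.919), and Uqcrfs1, the Rieske iron-sulfur protein, 181 and 190 (1.05, 1.02 to 1.08). In NK cells Uqcrfs1 had the highest ratio of the nuclear members at 50 CPM or more (178 and 218 CPM, 1.22, 1.02 to 1.46). Uqcrb had 174 and 177 CPM in B-1 cells, with an interval that included 1.

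Of complex IV, Cox7c had 231 and 189 CPM in B-1 cells (0.817, 0.793 to 0.841) and was called lower in NK cells (324 and 226 CPM, 0.697, 0.597 to 0.814). Cox7b had 175 and 152 CPM in B-1 cells (0.871, 0.842 to 0.900). Cox4i1, the main regulatory subunit, went the other way with 790 and 842 CPM (1.07, 1.05 to 1.08). Cox7a2l, which helps join complexes III and IV into supercomplexes, had 299 and 329 CPM in B-1 cells (1.1, 1.07 to 1.13) and 225 and 268 in NK cells (1.19, 1.01 to 1.40).

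**Figure D3:**
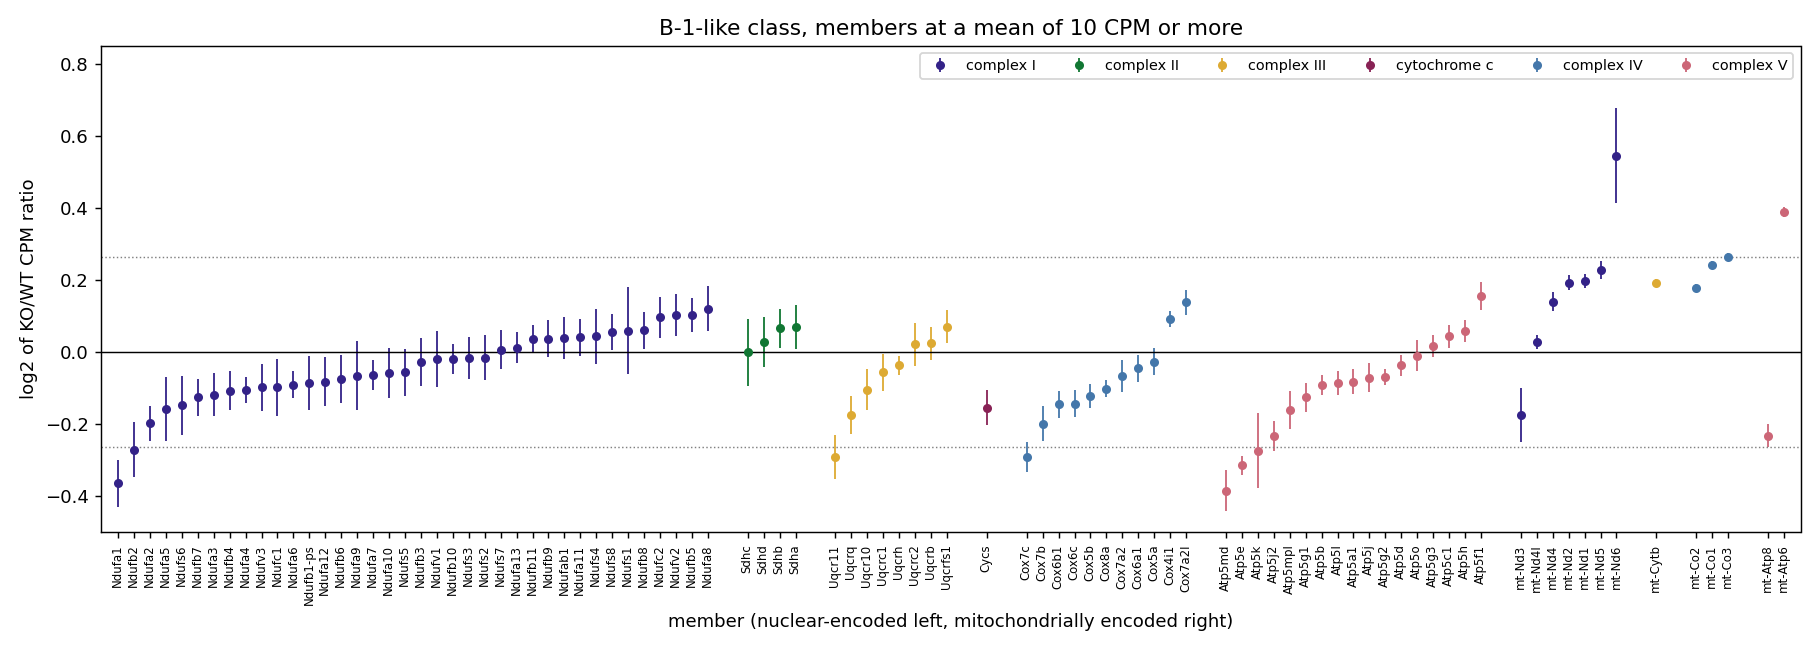
Log2 of the KO to WT CPM ratio (y axis) of each of the 92 members at a mean of 10 CPM or more in B-1 cells, grouped by complex, with nuclear-encoded members on the left and mitochondrially encoded ones on the right of the x axis. Points are ratios, bars exact 95% intervals for counting error and dotted lines the 1.2-fold limits. Atp5md (0.766), Ndufa1 (0.776) and Atp5e (0.804) lie wholly below the lower line, and mt-Atp6 (1.31) and mt-Nd6 (1.46) wholly above the upper one.

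Among the mitochondrially encoded genes, 2 cistrons of the same message had ratios on opposite sides of 1. The gene mt-Atp6, whose product forms the proton channel of ATP synthase, had 1579 CPM in WT and 2066 in KO B-1 cells (1.31, 1.30 to 1.32). It was called higher in KO in B-2 cells (1387 and 1850 CPM, 1.33), T cells (1340 and 1702, 1.27) and NK cells (1020 and 1334, 1.31). The gene mt-Atp8, whose 43 last bases are the first of mt-Atp6 in the sequences above, had 411 and 350 CPM in B-1 cells (0.851, 0.832 to 0.869). Its ratio was below 1 in all 8 classes, with 0.857 in B-2, 0.854 in T and 0.920 in NK cells. In large peritoneal macrophages it was called lower (286 and 188 CPM, 0.656, 0.517 to 0.831).

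The mt-Atp8 share of the pair was very even across classes within a library. It was 20.7% in B-1 (20.4% to 20.9%), 21.3% in B-2, 20.7% in T and 19.9% in NK cells of the WT library. In KO it was 14.5% (14.3% to 14.7%), 14.8%, 14.9% and 14.8%. The 8 classes ran from 19.9% to 23.0% in WT and from 13.3% to 16.2% in KO, so the libraries did not overlap. The complex I pair showed no such difference in size. The mt-Nd4l share was 67.2% in WT and 65.5% in KO B-1 cells, 67.3% and 67.0% in B-2 cells, and 67.5% and 67.2% in T cells. The sources used here do not say how reads in the shared bases were counted.

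The other mitochondrial genes of complex IV followed the sum. In B-1 cells mt-Co1, the catalytic subunit, had 3596 and 4254 CPM (1.18, 1.17 to 1.19), mt-Co2 2818 and 3187 (1.13, 1.12 to 1.14), and mt-Co3 2857 and 3430 (1.201, 1.19 to 1.21). In NK cells mt-Co1 was called higher, with 2336 and 2991 CPM (1.28, 1.22 to 1.35). The only mitochondrial gene of complex III, mt-Cytb, had a ratio of 1.14 in B-1 (1.13 to 1.15), 1.17 in B-2, 1.11 in T and 1.14 in NK cells.

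The 7 complex I genes were more scattered. In B-1 cells mt-Nd1 had 851 and 975 CPM (1.15), mt-Nd2 813 and 929 (1.14), mt-Nd4 517 and 569 (1.101) and mt-Nd5 546 and 640 (1.17). The short mt-Nd4l had 1061 and 1082 CPM, a ratio of 1.02 (1.01 to 1.03). The short mt-Nd3 was lower in KO, with 72.1 and 63.8 CPM (0.885, 0.840 to 0.932), and in NK cells 63.6 and 39.3 CPM (0.618, 0.424 to 0.893). The gene mt-Nd6 lies on the other strand and overlaps mt-Nd5. It was called higher in KO B-1 cells (18.5 and 27.0 CPM, 1.46, 1.33 to 1.60). The sources used here do not say whether strand was used in counting, so its reads and those of its neighbour may not be separable.

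**Figure D4:**
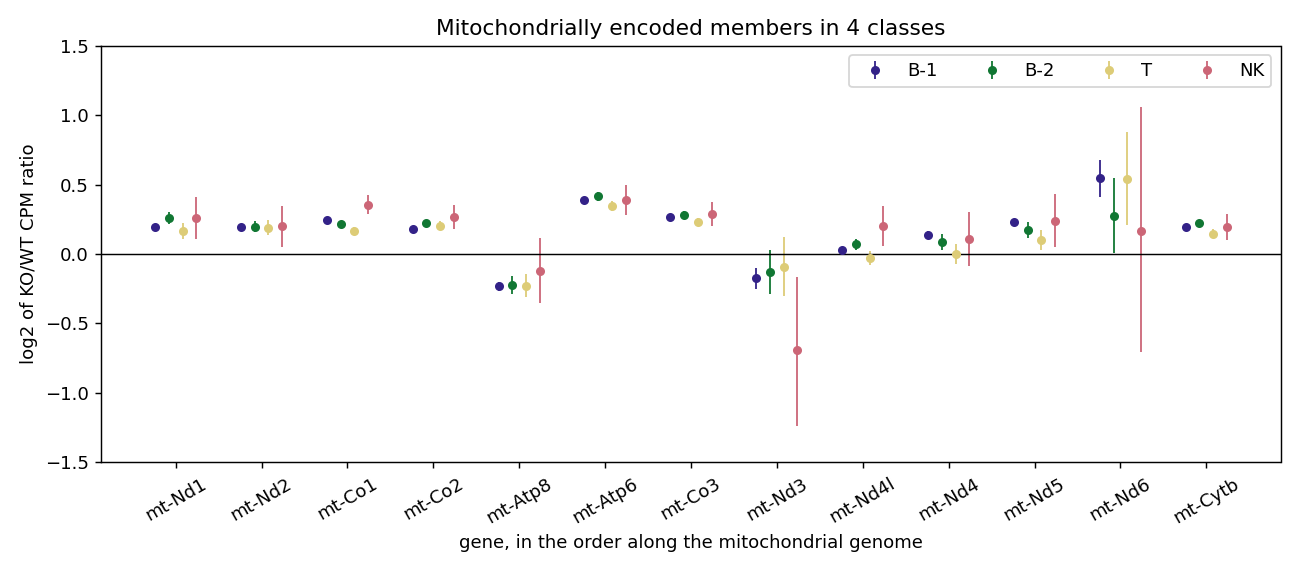
Log2 of the KO to WT CPM ratio (y axis) of the 13 mitochondrially encoded members, in their order along the genome (x axis), in B-1, B-2, T and NK cells (colours). Points are ratios and bars exact 95% intervals for counting error. In all 4 classes mt-Atp6 lies above 0 (1.31, 1.33, 1.27 and 1.31 as ratios) and its neighbour mt-Atp8 below 0 (0.851, 0.857, 0.854 and 0.920).

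Several of the lowest members have short transcripts, but others do not. The annotated principal transcript is 421 bases for Atp5e, 419 for Ndufa1, 445 for Uqcr11 and 540 for Cox7c. It is 2733 for Atp5md, 4371 for Ndufb2, 1521 for Uqcrq and 1001 for Cox7b, which were also among the lowest of their complexes in B-1 cells. The mitochondrial genes mt-Atp8, mt-Nd4l and mt-Nd3 have 204, 297 and 348 bases. Of these mt-Nd4l had a B-1 ratio of 1.02, and mt-Nd6, with 519 bases, had 1.46. In B-1 cells 14 of the 16 nuclear members of 400 to 600 bases had a ratio below 1, with a median log2 ratio of -0.10. The nuclear members of 600 to 800 bases had a median of -0.04 (18 genes), those of 800 to 1200 bases -0.01 (17 genes) and those of 1200 to 2000 bases -0.02 (16 genes). The longest, of over 2000 bases, were low again with -0.07 (10 genes). Genes outside the respiratory chain showed the same dip at 400 to 600 bases, with a median of -0.09 over 67 genes against 0.05 at 600 to 800 bases. Of these 67, 13 of 14 genes of the cytosolic ribosome and 34 of 53 others had a ratio below 1. In NK cells 15 of 16 nuclear members of that length lay below 1, with medians of -0.12 for them and -0.16 for 69 other genes. The 10 nuclear members of over 2000 bases had a lower median there, -0.17. Lengths are those of annotated transcripts, and which forms the cells expressed was not examined. Over all lengths the relation was weak, with a Spearman correlation across genes of 0.29 for 78 nuclear members and 0.01 for 6808 others in B-1 cells; these are genes of the same 2 libraries and not replicates. The part of transcript length in the ratios was not tested.

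**Figure D5:**
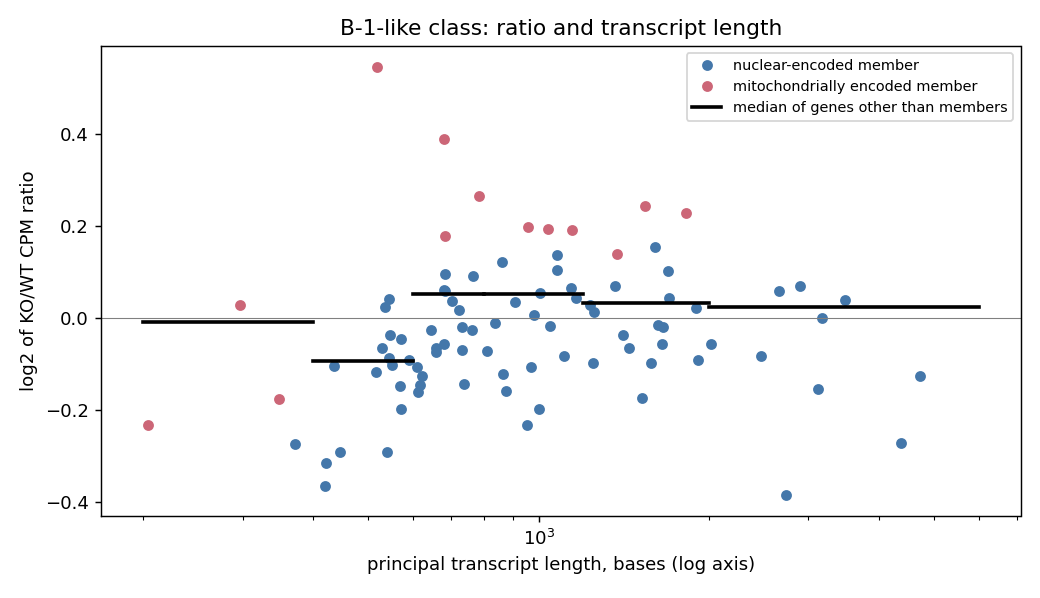
Log2 of the KO to WT CPM ratio in B-1 cells (y axis) against the length of the annotated principal transcript in bases (x axis, log scale) for nuclear-encoded (blue) and mitochondrially encoded (red) members; black lines are medians of genes that are not members, by length bin. Members and other genes of 400 to 600 bases have medians of -0.10 and -0.09, and mt-Atp8 and mt-Nd3 are the red points below 0.

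Among other mitochondrial genes few were called. Over all genes tested 1.83% were called lower and 2.93% higher in B-1 cells, and 0.898% and 1.45% in NK cells. In T cells 1.25% were called lower. With lists this short, 1 call is not read as a result about a list. In B-1 cells none of 76 genes of the mitochondrial ribosome was called, with a median log2 ratio of 0.03 that equalled the median of all genes. Of 38 assembly factors 1 was called lower, Timmdc1, which helps assemble complex I (18.2 and 13.5 CPM, 0.739, 0.662 to 0.824), and it was also called lower in T cells (23.4 and 15 CPM, 0.642, 0.501 to 0.820). Of 10 genes for transcription and maintenance of the mitochondrial genome 1 was called lower, Slirp, which binds and stabilises mitochondrial messages (30.6 and 22.9 CPM, 0.750, 0.690 to 0.815). Tfam, which packages and transcribes that genome, had 43.9 and 42.7 CPM with an interval that included 1. Of 22 import genes 1 was called lower, Tomm7 (122 and 95.9 CPM, 0.786, 0.755 to 0.819). None of 16 genes of the tricarboxylic acid cycle, 13 for coupling and antioxidant defence and 7 biogenesis regulators was called in B-1 cells. In NK cells Myc, a regulator of mitochondrial biogenesis among many other programmes, was called higher (99.1 and 211 CPM, 2.13, 1.71 to 2.67). It was 1 of 6 biogenesis regulators tested there. Mrpl48 of the mitochondrial ribosome was also called higher in NK cells (19.8 and 41.6 CPM, 2.10, 1.27 to 3.56), 1 of 75 genes of that list tested there. Of 23 import genes tested in NK cells Tomm40l was called lower, from 21 UMIs in WT and 5 in KO (17.3 and 3.93 CPM, 0.226, 0.0667 to 0.617).

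Of the 81 cytosolic ribosomal protein genes 9 were called lower in B-1 cells (1.83% of all genes) and none higher (2.93%). The lowest was Rps21 (1938 and 1383 CPM, 0.714, 0.706 to 0.721). Such genes have many UMIs (86245 in WT and 57098 in KO for Rps21) and narrow intervals, and the percentages were not matched for level. The median log2 ratio of the 81 genes was -0.09 in B-1 and -0.10 in T cells, but 0.01 in B-2 and NK cells. The nuclear-retained RNA Malat1, taken as a sign of RNA quality, was higher in KO in the lymphoid classes, with 4901 and 5750 CPM in B-1 (1.17, 1.17 to 1.18), 5642 and 6219 in B-2 (1.102), 5045 and 5943 in T (1.18) and 6077 and 6727 in NK cells (1.11). It was also higher in dividing cells (1.104, 1.04 to 1.17). A further nuclear-retained RNA, Neat1, was higher in KO in B-1 (1.22, 1.14 to 1.30) and T cells (1.13, 1.01 to 1.28). Its interval included 1 in B-2 (1.04, 0.922 to 1.17) and NK cells (0.961, 0.781 to 1.18). In conventional dendritic cells and large peritoneal macrophages Malat1 did not move with the mitochondrial sum. Conventional dendritic cells had a Malat1 ratio of 0.971 (0.947 to 0.996) beside 1.09 for the mitochondrial sum. Large peritoneal macrophages had 1.32 (1.25 to 1.399) beside 1.02. In small peritoneal macrophages or monocytes both intervals included 1, with 0.980 (0.943 to 1.02) for Malat1 beside 1.02 for the mitochondrial sum. The part of RNA quality in the mitochondrial difference was not tested.

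One member marked a rare cell. Cox6a2, the heart and muscle form of a complex IV subunit, was called lower in KO conventional dendritic cells, with 46.7 CPM in WT and 1.15 in KO, where 2.7% of all genes were called lower. When all barcodes were clustered with no doublets removed, a plasmacytoid dendritic-like cluster of 10 WT and 8 KO barcodes appeared, with Siglech at 2027 and 1186 CPM. Cox6a2 stood at 1197 CPM in the WT barcodes (995 to 1427) and 583 in the KO ones (394 to 833), with a UMI in 10 of 10 and 5 of 8. Of the 10 WT barcodes 9 had been placed among the conventional dendritic cells and held all 110 Cox6a2 UMIs counted there, whereas all 8 KO barcodes had been removed as doublets. Without those 9, the WT conventional dendritic cells had 0 Cox6a2 UMIs, which allows up to 1.32 CPM when set at 3 counts and 1.62 CPM as the upper end of the 95% interval, against 3 UMIs in KO. In the B-1 class of that clustering the gene had 0 UMIs in WT and 12 in KO (0.253 CPM).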

How the data were processed

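The deposited expression files hold unnormalised UMI counts per gene and barcode, and the deposited receptor files hold read and UMI counts per contig. Cell Ranger 6.1.2 is named per the file headers. Version 6.0.1, Seurat 4.3.0 and the build mm39 stand in the submitters' processing notes. The labels name a 3' kit, but the end read is uncertain. The targeted gene is left unnamed. Barcodes were dropped below 200 genes or at 10% or more mitochondrial UMIs. Scrublet (scanpy 1.11.5) marked none at its automatic threshold, so the highest scores were removed at 0.8% per 1000 barcodes, leaving 9224 WT and 18465 KO barcodes. Clustering used 2000 variable genes without members, mitochondrial, ribosomal and receptor genes, 30 components, 15 neighbours and Leiden (leidenalg 0.10.2) at resolution 1. How markers give class names was decided with the data in view. Clusters left without a name made up 6.76% of the WT barcodes and 7.19% of those from KO.

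UMIs were summed per class and library. Ratios have exact conditional binomial 95% intervals and shares Clopper-Pearson intervals (scipy 1.17.1). The call rule was tested on simulated data. Transcript lengths came from GENCODE vM21, which held all 100 member IDs. The members, lists and tests were chosen with earlier results of these data known. Genes named were the 13 mitochondrial members, complex II, Cycs, in B-1 the 2 highest and 2 lowest nuclear ratios at 50 CPM or more per complex, in other classes with 200 barcodes in both libraries the 3 highest and 3 lowest, isoform groups and called genes of other lists (of ribosomal proteins, the lowest in B-1). Cox6a2 in dendritic cells, Malat1, Tfam and values of named genes in further classes were added after values were seen.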

Additional observations from a re-analysis of the deposited data

How the results depend on the processing

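No paired analysis was possible because each genotype had 1 expression library. The mitochondrial ratio stayed above 1 in B-1, B-2, T and NK cells under all 10 alternatives run for each class, and the nuclear ratio stayed below 1 in B-1 and NK cells under all 9. Scaled to the median ratio of all genes, the nuclear ratio changed sides in B-2 (1.01) and T cells (0.996), because that median lay on the far side of the nuclear ratio. The same scaling gave 0.944 for the nuclear sum of B-1 cells and 1.14, 1.195 and 1.11 for the mitochondrial sums of B-1, B-2 and T cells.

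Thinned to 1000 UMIs, the nuclear ratio was 0.953 in B-1 and 1.005 in T cells and the mitochondrial ratio 1.19 in B-1, 1.19 in B-2 and 1.26 in NK cells. The mitochondrial shares were then 1.79% (WT) and 2.14% (KO) in B-1, 1.57% and 1.87% in B-2 and 1.04% in WT NK cells, and the nuclear shares 1.55% in KO B-1, 1.55% and 1.52% in B-2 and 1.81% in KO T cells. With no doublets removed, the mitochondrial ratio was 1.15 in B-1, 1.14 in T and 1.29 in NK cells and the nuclear ratio 1.01 in T cells. Mitochondrial shares were then 2.05% (KO B-1), 1.86% (KO B-2), 1.63% (KO T), 1.12% and 1.45% (WT and KO NK), and nuclear shares 1.81% (KO T), 1.99% and 1.80% (WT and KO NK). Weighting clusters alike gave mitochondrial ratios of 1.19 in B-1, 1.15 in B-2 and 1.15 in T cells and nuclear ratios of 0.962 in B-2 and 1.004 in T cells. With 1 barcode per clone the mitochondrial ratio was 1.15 in B-1 and 1.16 in B-2 cells. Scaling without mitochondrial and immunoglobulin UMIs gave 0.966 and 1.16 for the nuclear and mitochondrial sums of B-1 cells. Leaving out mt-Atp8 and mt-Nd3, an alternative chosen after seeing the data like the shares with no doublets removed, gave 1.17 in B-1 and 1.18 in B-2 cells. Over UMIs without immunoglobulin, nuclear shares were 1.66% and 1.59% in B-1 and 1.59% and 1.58% in B-2, and mitochondrial shares 1.82% and 2.11%, and 1.62% and 1.89%. With no mitochondrial limit the mitochondrial shares were 2.07% (KO B-1), 1.60% and 1.86% (B-2), and 1.86% (KO B-2) with a limit of 20%.

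Over the B-1, B-2, T and NK classes 7 calls of nuclear members lower and 6 of mitochondrial members higher were made. These counts were 4 nuclear calls when thinned, 13 and 10 with clusters weighted alike, 0 and 0 at a fold limit of 1.5, and 25 and 25 at 1.1. At 1.1, 2 nuclear members were also called higher and 4 mitochondrial members lower, and with no level filter 1 nuclear member was called higher. The share of all genes called under these alternatives is not given, so the counts have no background to be read against. Of 183 member ratios with an interval clear of 1, thinning moved 6 to the other side of 1 and weighting clusters alike 2. The causes of these shifts were not tested. Among the B-1, B-2, T and NK classes depth limits the NK class most, with 1211162 UMIs in WT.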
